A study of Mus musculus with 2 samples.

Results

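The genes described here are those of the axon guidance families: the semaphorins, ephrins and Slits, which are ligands, and the plexins, neuropilins, Eph receptors, Robo receptors and *Met*, which are receptors. They were taken by gene symbol, as every probe set (a group of short probes for 1 transcript on the array) that the array annotation gives exactly 1 symbol of these families. This gave 60 genes of 18193 named on the array, on 138 probe sets. Of the 60, 31 encode ligands, 28 encode receptors and 1, *Plxna4os1*, is an RNA antisense to *Plxna4* and was counted with neither. Where a gene has several probe sets, its value is read from the one whose signal, averaged over both arrays, is highest, called its brightest. Cells of CD47 KO mice, which lack CD47, the cell-surface ligand of SIRPα, were set against cells of WT mice. For each genotype there was 1 array, hybridised with brain mononuclear cell RNA that was pooled from 6 CD47 KO mice aged 12 to 16 weeks and from 7 WT mice aged 10 to 15 weeks, all labelled male. The cells were the fraction of enzymatically dissociated whole brain that gathers at a density interface, a fraction that includes microglia and is not sorted for them, and no treatment was given. With 1 pool per genotype there is no replicate, so no spread between mice and no test can be given, and each difference below describes these 2 arrays.

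Guidance molecules were named for steering growing axons, and the same ligands and receptors act in blood vessels, in immune cells and in glia of the adult brain. Semaphorins bind plexins, the secreted class 3 members mostly through a neuropilin, and the bound plexin acts on small GTPases and on the cytoskeleton. Ephrins are tethered to the membrane and signal in both directions with Eph receptor tyrosine kinases on a neighbouring cell. Slits are secreted and bind Robo receptors. *Met* encodes the receptor of hepatocyte growth factor, whose outer part carries a Sema domain like that of the plexins.

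Signals are given as the authors' MAS5 values, an intensity scale on which both arrays were set to the same mean. They compare 1 probe set between the arrays, and do not rank different genes by abundance. A probe set was taken to pass the signal filter when the geometric mean of its CD47 KO and WT signals reached 153, the geometric mean of the array medians, which were 146 in CD47 KO and 161 in WT. Of the 60 guidance genes 36 passed, namely 21 ligands and 15 receptors, and 24 did not. Of all 60, 42 reached the median of at least 1 array, 6 of them without passing. Differences are given as Log2 ratios (CD47 KO/WT), on which a value of 1 is 2-fold, without any offset.

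*Cd47* gave a signal of 1688 in the CD47 KO pool and 5816 in the WT pool on its brightest probe set, and all 5 of its probe sets were lower in CD47 KO, with Log2 ratios of −1.86 to −1.45. *Xist*, the RNA of the inactive X chromosome, gave 6530 in CD47 KO and 7070 in WT on its brightest probe set, although both pools are labelled male. Its other probe sets were higher in CD47 KO, at Log2 ratios of 0.32 and 0.52. The Y-linked *Eif2s3y* gave 461 in CD47 KO and 189 in WT on its brightest probe set. Its other probe set was lower in CD47 KO, with 146 in CD47 KO and 165 in WT. *Kdm5d*, also Y-linked, gave 307 in CD47 KO and 162 in WT on its brightest probe set. Its other probe sets were dimmer and differed in direction. They gave 104 in CD47 KO and 48.7 in WT, and 32.9 in CD47 KO and 115 in WT. These 3 genes were chosen after their values were seen. The *Xist* signal goes against the male label of both pools, and any difference in their sex makeup cannot be told apart from genotype. The ratio of the control probe sets at the 3′ end over those at the 5′ end was 2.16 in CD47 KO and 2.06 in WT for *Gapdh*, and 1.05 in CD47 KO and 1.11 in WT for *Actb*.

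Most guidance genes differed by less than 2-fold between the pools. Among the 36 that passed the filter, 3 exceeded WT by more than 2-fold in CD47 KO, the secreted semaphorins *Sema3e* and *Sema3a* and the Eph receptor *Ephb3*, and 0 were more than 2-fold lower. These 3 passed through their CD47 KO signal, since their WT signals of 108 (*Sema3e*), 151 (*Sema3a*) and 149 (*Ephb3*) lay below both the filter and the WT array median, and with both signals required to reach their own array's median the count was 0. Over all 10938 genes that passed, 2.16% were more than 2-fold higher and 3.71% were more than 2-fold lower. By sign alone 23 of the 36 were higher and 13 were lower, while 50.3% of all genes that passed were higher. The median Log2 ratio of the 36 was 0.25, beside a median of 0.0030 over all genes that passed. The 21 ligands had 13 higher and 8 lower, with a median of 0.30 and a range of −0.82 to 1.55. The 15 receptors had 10 higher and 5 lower, with a median of 0.19 and a range of −0.59 to 1.16. The receptor range lay within the ligand range, and ligands and receptors were not tested against each other.

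Without the filter, 7 of the 60 had a CD47 KO signal more than 2-fold above WT, beside 8.18% of all 18193 genes, and 2 were more than 2-fold lower, beside 12.2%. The 4 additional genes that were higher were *Met*, *Slit2*, *Epha10* and *Plxnb3*, and the 2 that were lower were *Efna4* and *Sema3b*. All 6 lie below the filter, where 17.27% of all genes were more than 2-fold higher and 25.02% more than 2-fold lower. The median of all 31 ligands was then −0.0080 and that of all 28 receptors 0.21.

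**Figure D1:**
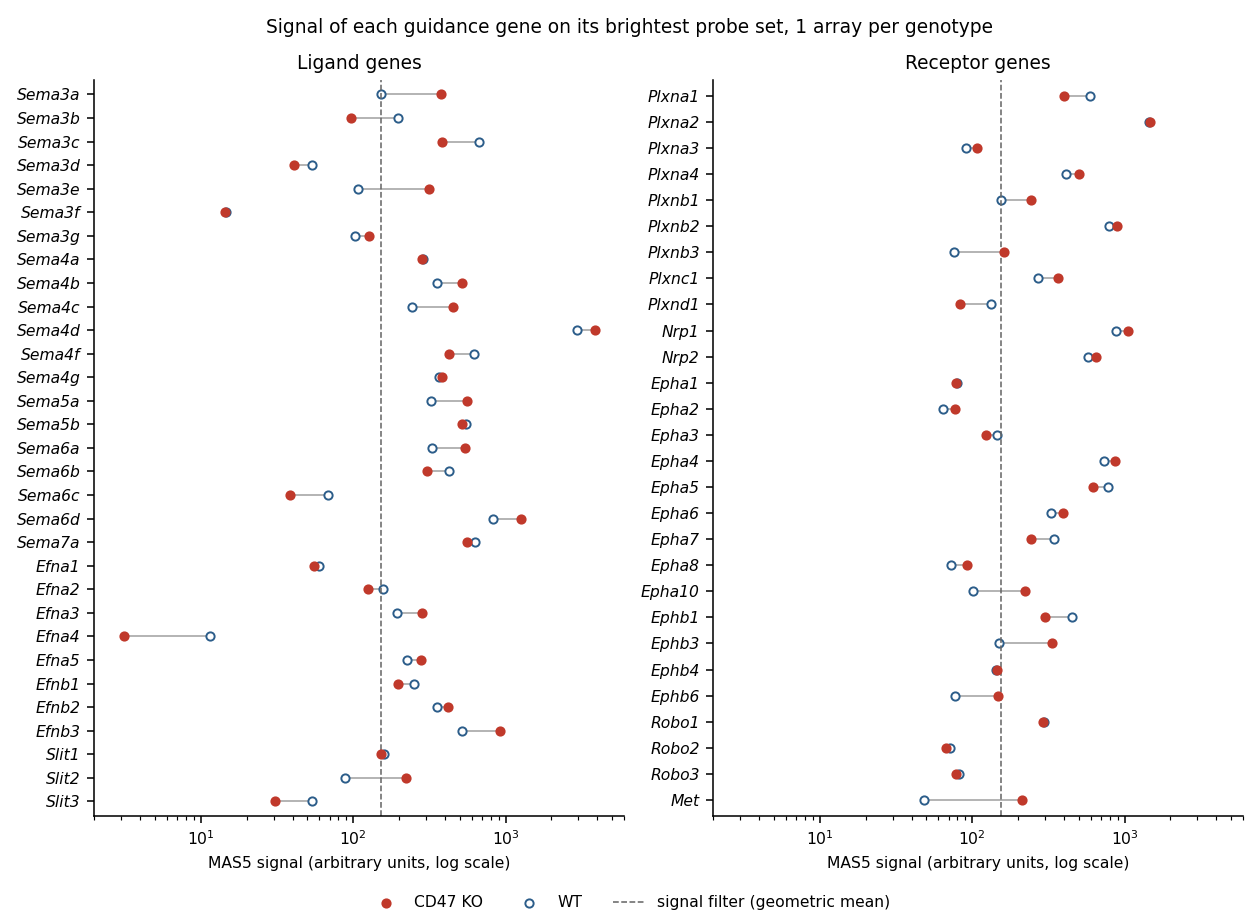
MAS5 signal (log scale) of each ligand gene (left) and receptor gene (right) on its brightest probe set, with filled points for the CD47 KO array and open points for the WT array, 1 array each, and a dashed line at the signal filter of 153. The points of most genes lie close together, and those of *Sema3a*, *Sema3e*, *Ephb3*, *Slit2*, *Epha10*, *Plxnb3* and *Met* are more than 2-fold apart with the CD47 KO point on the right, as are those of *Efna4* and *Sema3b* with it on the left.

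*Sema3e* encodes a secreted semaphorin that binds plexin-D1 without a neuropilin. Its signal was 315 in CD47 KO and 108 in WT, a Log2 ratio of 1.55. It has 4 probe sets, of which a second gave 209 in CD47 KO and 84.8 in WT (1.30). Another gave 64.6 in CD47 KO and 37.3 in WT (0.79), while the last gave 179 in CD47 KO and 187 in WT (−0.06). *Sema3e* was the only gene of the 9 past 2-fold, filtered or not, with a second probe set past 2-fold the same way, and 1 of its 2 probe sets above the filter did not share that difference. *Sema3a*, which collapses growth cones through neuropilin-1 and plexin-A receptors, had 377 in CD47 KO and 151 in WT (1.32). Its other probe set above the filter gave 271 in CD47 KO and 204 in WT (0.41), and its dimmest gave 26.4 in CD47 KO and 25.2 in WT (0.07), so all 3 were higher in CD47 KO and 1 was past 2-fold.

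*Sema3c*, a class 3 semaphorin that guides neural crest cells of the heart outflow tract, was split between its probe sets. The brightest gave 381 in CD47 KO and 671 in WT, which at −0.82 was the lowest Log2 ratio among the guidance genes above the filter. The other gave 502 in CD47 KO and 319 in WT (0.65), so *Sema3c* has no single direction here. *Sema3b*, a secreted semaphorin known as a tumour suppressor, had 96.6 in CD47 KO and 197 in WT (−1.03), and its other probe sets were at −0.87 and 0.11, all below the filter. The remaining class 3 genes, *Sema3d*, *Sema3f* and *Sema3g*, were below the filter at −0.40, −0.01 and 0.31. Dimmer probe sets of *Sema3d* (−1.13) and *Sema3f* (1.38) were past 2-fold.

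Of the 7 class 3 genes, 4 lie on mouse chromosome 5, with start sites on the plus strand at 12383166 for *Sema3d*, 13396784 for *Sema3a*, 14025276 for *Sema3e* and 17574816 for *Sema3c* (GRCm38.p6). *Sema3a* and *Sema3e*, the 2 semaphorins past 2-fold, are next to each other among these 4, with 628 kb between their starts. The start of *Sema3d*, which was below the filter at −0.40 with signals of 40.7 in CD47 KO and 53.8 in WT, lies 1014 kb before that of *Sema3a*, and the start of *Sema3c*, with probe sets at −0.82 and 0.65, lies 3550 kb after that of *Sema3e*.

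The sequence before the start of *Sema3e*, *Sema3a* and *Ephb3* is printed because these 3 genes carry the 2-fold count, and that of *Slit2* and *Met* because they had the largest ratios among the dimmer genes that were higher in CD47 KO. Each is the 250 bases upstream of the start in RefSeq (GRCm38.p6), 5′ to 3′ on the gene's strand, which is the plus strand for all 5, at chr5:13396534-13396783 (*Sema3a*), chr5:14025026-14025275 (*Sema3e*), chr16:21204545-21204794 (*Ephb3*), chr5:47982905-47983154 (*Slit2*) and chr6:17463707-17463956 (*Met*). Capitals mark 3 motifs searched on both strands, the GC box GGGCGG, the TATA box TATAAA and the E-box CACGTG, and no 2 matches of different motifs overlap.
Sema3a: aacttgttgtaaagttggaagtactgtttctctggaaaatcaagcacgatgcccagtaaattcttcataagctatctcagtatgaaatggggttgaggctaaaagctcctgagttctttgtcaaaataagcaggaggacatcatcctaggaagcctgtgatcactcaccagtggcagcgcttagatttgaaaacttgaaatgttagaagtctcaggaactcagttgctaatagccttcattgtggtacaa
Sema3e: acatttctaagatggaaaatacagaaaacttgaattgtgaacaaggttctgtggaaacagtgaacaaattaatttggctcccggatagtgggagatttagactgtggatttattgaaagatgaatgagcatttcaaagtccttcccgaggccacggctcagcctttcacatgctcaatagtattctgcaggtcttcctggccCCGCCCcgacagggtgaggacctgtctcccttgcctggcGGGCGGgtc
Ephb3: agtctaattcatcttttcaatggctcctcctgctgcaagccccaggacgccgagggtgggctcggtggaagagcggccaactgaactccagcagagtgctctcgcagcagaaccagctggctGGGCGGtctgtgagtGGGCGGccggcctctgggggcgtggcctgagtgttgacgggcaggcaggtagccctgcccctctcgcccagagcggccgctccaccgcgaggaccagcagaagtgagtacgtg
Slit2: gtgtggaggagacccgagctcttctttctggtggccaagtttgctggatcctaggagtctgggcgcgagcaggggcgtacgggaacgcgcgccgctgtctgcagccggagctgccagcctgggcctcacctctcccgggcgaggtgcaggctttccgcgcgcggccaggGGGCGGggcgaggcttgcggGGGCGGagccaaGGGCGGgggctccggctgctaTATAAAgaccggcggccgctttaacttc
Met: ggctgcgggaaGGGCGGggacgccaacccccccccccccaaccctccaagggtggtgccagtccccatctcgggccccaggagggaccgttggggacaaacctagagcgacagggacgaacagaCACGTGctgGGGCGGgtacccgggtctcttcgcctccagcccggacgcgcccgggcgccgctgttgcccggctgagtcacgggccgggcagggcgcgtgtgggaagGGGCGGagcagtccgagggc
The 5 windows differ in base content. The *Sema3a* window has 40.8% G and C and 2 CpG, with none of the 3 motifs, and that of *Sema3e* has 48.0%, 7 CpG and 2 GC boxes. *Ephb3* has 65.6%, 16 CpG and 2 GC boxes, *Slit2* has 69.6%, 25 CpG, 3 GC boxes and a TATA box, and *Met* has 74.0%, 24 CpG, 3 GC boxes and an E-box. The median over all 32851 windows of the RefSeq table is 52.4% G and C and 6 CpG. A GC box is in 32.7% of all windows, TATAAA in 12.4% and CACGTG in 6.02%. Of the 60 guidance genes 52 have a window, some of them more than 1, and 50 of their 68 windows hold a GC box (73.5%), 2 hold TATAAA and 5 hold CACGTG. These 68 windows have a median of 15 CpG, against 6 over all windows, and GC box shares were not compared at like CpG content. None of the 3 motifs was in all 5 windows, and a match is a run of letters, not a bound site.

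All 6 class 4 semaphorins, which are transmembrane ligands, passed the filter, and 4 were higher and 2 lower. *Sema4d* encodes CD100, which is found on T cells and other leukocytes and acts through plexin-B receptors and CD72. Its signal was 3867 in CD47 KO and 2964 in WT (0.38), which places it, alone among the guidance genes, in the brightest 25% of the genes that passed. Its other 2 probe sets, at 366 in CD47 KO and 390 in WT (−0.09) and at 188 in CD47 KO and 206 in WT (−0.13), showed nearly equal signals. *Sema4c*, a ligand of plexin-B2, had 454 in CD47 KO and 242 in WT (0.90) on its single probe set. *Sema4b* had 517 in CD47 KO and 356 in WT (0.54), with a dimmer probe set at −0.88. Lower values were given by *Sema4f*, with 425 in CD47 KO and 616 in WT (−0.54), and its second probe set was also lower at −0.75. *Sema4a*, an immune semaphorin of dendritic cells and T cells, and *Sema4g* were nearly level at −0.03 and 0.05.

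The class 5 semaphorins carry thrombospondin repeats. *Sema5a* had 561 in CD47 KO and 326 in WT (0.79), and its other 2 probe sets above the filter were higher too, at 0.27 and 0.16. *Sema5b* was near 0 (−0.10) on its brightest probe set and at 0.58 on the other. In class 6, whose members are transmembrane ligands of plexin-A receptors, *Sema6d* had 1267 in CD47 KO and 828 in WT (0.61), and all 4 of its probe sets were higher, from 0.27 to 1.14. *Sema6a* had 540 in CD47 KO and 330 in WT (0.71), but its second probe set above the filter was at −0.12 and a dim probe set at −1.09. *Sema6b* was lower, with 303 in CD47 KO and 426 in WT (−0.49). *Sema6c* was below the filter at −0.84, with dimmer probe sets at 1.66 and −0.47. *Sema7a*, the membrane semaphorin anchored by a lipid, which binds plexin-C1 and an integrin, had 561 in CD47 KO and 626 in WT (−0.16) and 0.56 on its second probe set. Over all 20 semaphorins 15 passed, 9 higher and 6 lower, with a median of 0.38.

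Ephrins of the A class are held in the membrane by a lipid anchor. *Efna3*, with 281 in CD47 KO and 194 in WT (0.53), and *Efna5*, with 278 in CD47 KO and 227 in WT (0.30), were the 2 of 5 that passed. A second probe set of *Efna5* was at −0.58. *Efna1* (−0.12) and *Efna2* (−0.31) were below the filter, and so was *Efna4*, whose Log2 ratio of −1.87 rests on signals of 3.16 in CD47 KO and 11.5 in WT. With 39.2, the lower quartile of both arrays, added to both signals, *Efna4* was at −0.26.

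Ephrins of the B class span the membrane and signal into their own cell, and all 3 passed. *Efnb3* had 915 in CD47 KO and 521 in WT (0.81) on its single probe set. *Efnb2*, an arterial ephrin also used by neurons and glia, had 416 in CD47 KO and 352 in WT (0.24), and its other 3 probe sets gave 0.94, 0.28 and 0.0030, so none was lower. *Efnb1* had 198 in CD47 KO and 249 in WT (−0.33), with dim probe sets at −0.97 and 0.82.

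Slit signals were low. *Slit2* had 222 in CD47 KO and 88.3 in WT (1.33), but its other 2 probe sets gave 67.7 in CD47 KO and 91.3 in WT (−0.43), and 22.5 in CD47 KO and 29.8 in WT (−0.40). *Slit1* was at −0.06, just above the filter, but its dimmer probe set gave 85.5 in CD47 KO and 42.1 in WT (1.02). *Slit3*, at 30.9 in CD47 KO and 53.8 in WT, was at −0.80. The Robo receptors, which bind the Slits, were nearly level on their brightest probe sets. *Robo1* had 290 in CD47 KO and 294 in WT (−0.02), *Robo2* was at −0.09 and *Robo3*, which acts in axons that cross the midline, was at −0.06, the last 2 below the filter. A dimmer probe set of *Robo3* gave 21.7 in CD47 KO and 50.8 in WT (−1.23).

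**Figure D2:**
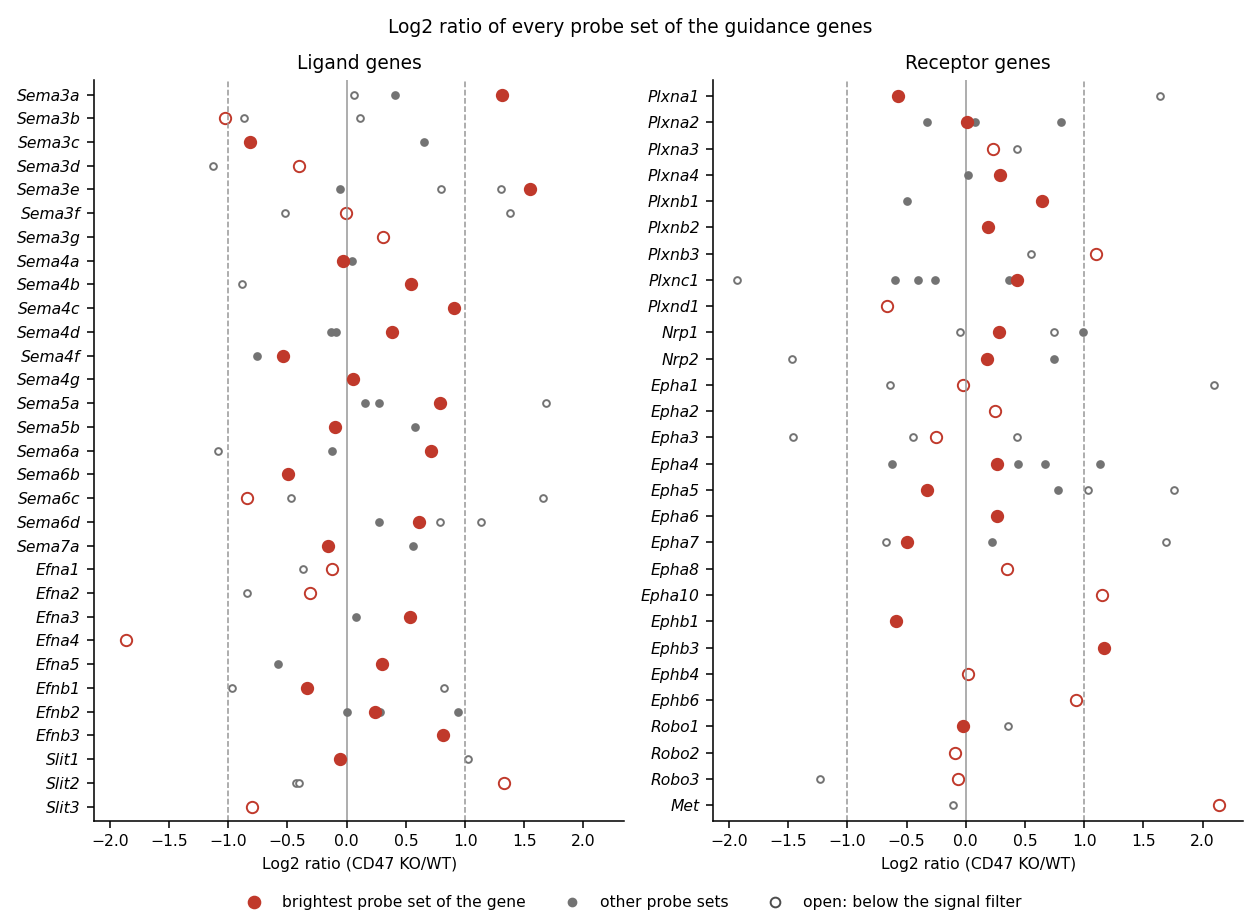
Log2 ratio (CD47 KO/WT) of each of the probe sets of the ligand genes (left) and receptor genes (right), with large points for the brightest probe set of a gene, small points for its others and open points for those below the signal filter, and dashed lines at 2-fold. The points of 1 gene often lie on both sides of 0, as for *Sema3c*, *Epha4*, *Epha5* and *Plxnc1*, and all 4 points of *Sema6d* lie to the right of it.

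Among the plexins, the receptors of semaphorins, 6 of 9 passed the filter, 5 higher and 1 lower, with a median of 0.24 and 0 past 2-fold. *Plxna2* had 1459 in CD47 KO and 1451 in WT (0.01), and its other probe sets ranged from −0.33 to 0.81. *Plxna1*, a receptor of *Sema3a* and *Sema6d* products, was the lower one, with 398 in CD47 KO and 592 in WT (−0.57), against 1.64 on a dim second probe set. *Plxna4*, a further receptor of *Sema3a*, had 504 in CD47 KO and 412 in WT (0.29), and its second probe set was nearly level at 0.02. *Plxna4os1*, which lies antisense to it, had 118 in CD47 KO and 142 in WT (−0.26), below the filter.

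The plexin-B genes encode receptors of class 4 semaphorins. *Plxnb2* had 898 in CD47 KO and 787 in WT (0.19). *Plxnb1*, the high-affinity receptor of *Sema4d*, had 242 in CD47 KO and 155 in WT (0.64) on one probe set and 143 in CD47 KO and 201 in WT (−0.49) on the other, which are opposite directions of similar size. *Plxnb3*, a receptor of *Sema5a* found in oligodendrocytes, had 162 in CD47 KO and 75.4 in WT (1.10), with 0.55 on a dimmer probe set. *Plxnc1*, the receptor of *Sema7a*, had 364 in CD47 KO and 271 in WT (0.43), while its other 4 probe sets above the filter ranged from −0.59 to 0.36. *Plxnd1*, the receptor of *Sema3e*, had 83.2 in CD47 KO and 132 in WT (−0.66), below the filter and opposite in sign to its ligand. *Plxna3* was below the filter at 0.23.

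Both neuropilins, the co-receptors through which most class 3 semaphorins act, were above the filter and slightly higher. *Nrp1*, which also binds vascular endothelial growth factor, had 1059 in CD47 KO and 874 in WT (0.28). Its second probe set gave 752 in CD47 KO and 378 in WT (0.99), so both of its probe sets above the filter were higher, by unlike amounts. *Nrp2* had 649 in CD47 KO and 574 in WT (0.18), with 0.74 and 0.17 on the other 2 probe sets that passed.

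Of 9 EphA receptor genes 4 passed the filter, 2 higher and 2 lower, with a median of −0.03. *Epha4*, a receptor of both ephrin classes that is strong in neurons and astrocytes, had 871 in CD47 KO and 727 in WT (0.26). Its second probe set, at 965 in CD47 KO and 440 in WT, was past 2-fold (1.13), and its other 3 gave 0.67, 0.44 and −0.62. *Epha5*, a neuronal receptor of A-class ephrins, had 624 in CD47 KO and 783 in WT (−0.33) and, on its other probe set that passed, 534 in CD47 KO and 311 in WT (0.78). Its dimmer probe sets were at 1.03 and 1.76. *Epha6* was at 0.27. *Epha7* was at −0.49 on its brightest probe set and at 0.22 on the other that passed, with dimmer probe sets at 1.69 and −0.67. Both genes counted as lower, *Epha5* and *Epha7*, thus have probe sets of both signs. *Epha10*, a member whose kinase is thought to be inactive, had 223 in CD47 KO and 100 in WT (1.15) on its single probe set, just below the filter. *Epha1*, *Epha2*, *Epha3* and *Epha8* were below it at −0.03, 0.25, −0.25 and 0.35. Dimmer probe sets of *Epha1* (2.10) and *Epha3* (−1.46) were past 2-fold.

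*Ephb3*, an EphB receptor known from axon tracts and the gut epithelium, was the receptor past 2-fold above the filter, with 334 in CD47 KO and 149 in WT (1.16), on its single probe set. With 39.2 added to both signals its ratio was 0.99, short of 2-fold. *Ephb1*, a receptor of B-class ephrins in neurons, was lower, with 298 in CD47 KO and 448 in WT (−0.59), also on 1 probe set. *Ephb4*, the venous receptor of ephrin-B2, was at 0.02, and *Ephb6*, which lacks kinase activity, had 147 in CD47 KO and 77.3 in WT (0.93), both below the filter. *Ephb2* was not analysed here.

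*Met* had the largest ratio of all 60 genes, with 211 in CD47 KO and 47.9 in WT (2.14), below the filter. Its second probe set gave 54.3 in CD47 KO and 58.6 in WT (−0.11), so the difference was seen with 1 of 2 probe sets. With 39.2 added to both signals the ratio was 1.52.

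Some ligands are set here beside their known receptors. *Sema3e* (1.55) faced *Plxnd1* (−0.66), and *Sema4d* (0.38) faced *Plxnb1* (0.64) and *Plxnb2* (0.19). *Sema3a* (1.32) faced *Nrp1* (0.28) and *Plxna4* (0.29), which were higher, and *Plxna1* (−0.57), which was lower. *Sema7a* (−0.16) faced *Plxnc1* (0.43), and with the mean over their probe sets above the filter these were 0.20 and −0.09, so the pair has no settled order. *Slit2* (1.33, below the filter, its other probe sets at −0.43 and −0.40) faced *Robo1* (−0.02). *Efnb3* (0.81) faced *Ephb3* (1.16) and *Ephb1* (−0.59). Unless said otherwise each value is that of the brightest probe set, *Plxnd1* is below the filter, the probe sets of *Plxnb1* differ in sign, and the pairs were chosen from known binding, with their values in view.

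The probe sets of a gene give the only repeat measurement within these arrays, and they share the RNA of each pool. Of 23 guidance genes with at least 2 probe sets above the filter, 9 had all of them on the same side of 0 and 14 had them on both sides. Of the 72 guidance probe sets that passed, 47 were higher and 25 lower, 4 were more than 2-fold higher and 0 more than 2-fold lower. Over all 19521 named probe sets that passed, 50.7% were higher, 2.45% more than 2-fold higher and 3.66% more than 2-fold lower. Of the 9 genes past 2-fold without the filter, 3 (*Ephb3*, *Epha10* and *Efna4*) have a single probe set. All genes above the filter were split by signal into 4 bands of equal size, and each probe set was placed by its own signal. The standard deviation between probe sets of a gene within the same band was 0.63 in the dimmest band, 0.46 and 0.34 in the middle bands and 0.17 in the brightest. Probe sets of a gene that fell in different bands were not compared, so these values leave out that part of the spread. *Sema3a*, *Sema3e* and *Ephb3* are among the 12 guidance genes in the dimmest band, where 4.83% of all genes were more than 2-fold higher. In the middle bands, with 16 and 7 guidance genes, 3.15% and 0.549% of all genes were, and in the brightest, with 1, 0.110%. No guidance gene of these 3 bands was past 2-fold.

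**Figure D3:**
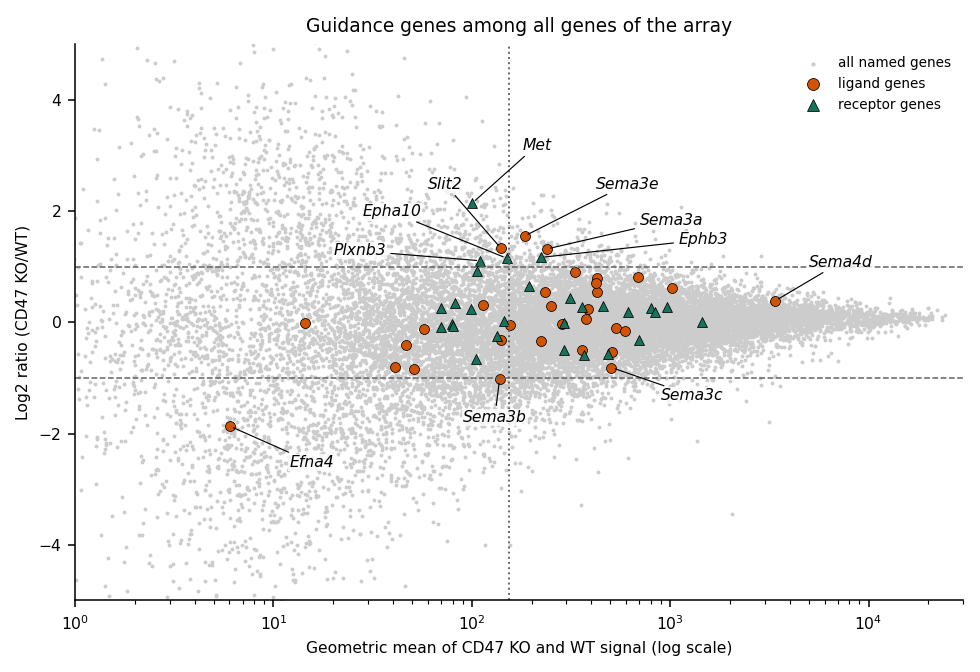
Log2 ratio (CD47 KO/WT) against the geometric mean of both signals (log scale) for all named genes (grey, 108 of them outside the plotted range), with ligand genes as circles and receptor genes as triangles, dashed lines at 2-fold and a dotted line at the signal filter of 153. The grey cloud narrows as signal increases, and the 3 guidance genes past 2-fold above the filter, *Sema3e*, *Sema3a* and *Ephb3*, stand close to the dotted line.

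With the mean over a gene's probe sets above the filter, the count of guidance genes more than 2-fold higher was 1, *Ephb3*. It has a single probe set, so this mean could not change its ratio, while *Sema3a* was then at 0.86 and *Sema3e* at 0.74. With 39.2 added to both signals the count was 2, *Sema3a* and *Sema3e*. The mean over probe sets also turned the sign of 4 genes above the filter with ratios over 0.1 in size, *Efna5* (−0.14), *Plxnc1* (−0.09), *Epha5* (0.23) and *Sema7a* (0.20).

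Further genes of the pathways were read from 3 lists. Counts past 2-fold in them are of genes that passed the filter. Over all genes that passed, 2.16% were more than 2-fold higher and 3.71% more than 2-fold lower. Among netrins, repulsive guidance molecules and their receptors, 14 of 20 genes passed, 6 higher and 8 lower, with a median of −0.05. *Flrt1*, which encodes a leucine-rich repeat protein that binds Unc5 receptors, had 545 in CD47 KO and 1243 in WT (−1.19). It was the only one of these 14 past 2-fold, while *Ntn3* (−1.24) and *Unc5d* (1.17) were so below the filter. *Ntng1*, or netrin-G1, was at 0.79, *Neo1*, the neogenin receptor of repulsive guidance molecules, at 0.50, and *Ntn5* at −0.29.

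Among co-receptors and other partners of the guidance families 18 of 24 passed, 13 higher and 5 lower, with a median of 0.16, and 2 were more than 2-fold higher. These were *Gpc1*, a heparan sulfate proteoglycan that binds Slits, with 770 in CD47 KO and 303 in WT (1.34), and *Ptprz1*, a receptor phosphatase of glia, with 1169 in CD47 KO and 536 in WT (1.13). Below the filter, *Ptk7* (−1.33) and *Vegfc* (−1.15) were more than 2-fold lower. *Kdr*, the main endothelial receptor of vascular endothelial growth factor, was at −0.60 and *Havcr2*, an inhibitory immune receptor, at 0.53.

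The cytoplasmic signalling genes downstream of the receptors were centred near 0, with 60 of 65 above the filter, 34 higher and 26 lower and a median of 0.03. *Mical1*, which oxidises actin below plexins, had 155 in CD47 KO and 330 in WT (−1.09). It was the only one of these 60 signalling genes past 2-fold, while *Rnd1* (1.47) was so below the filter. *Limk1*, the kinase that inactivates cofilin, was at 0.98, *Rgs3*, which acts below B-class ephrins, at 0.78 and *Rras*, a GTPase that plexins inactivate, at −0.75.

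Markers of cell types other than microglia gave signal on both arrays, and their lists did not differ alike. All 13 homeostatic microglia markers were higher, with a median of 0.19 and a summed signal of 114976 in CD47 KO and 98033 in WT, among them *Csf1r* with 15949 in CD47 KO and 15185 in WT. Astrocyte markers passed for 10 of 12 genes, 9 higher and 1 lower (median 0.30), with a sum of 32930 in CD47 KO and 26510 in WT, and *Slc1a2*, the main glutamate transporter of astrocytes, gave 10762 and 8851 in the same order. Precursors of oligodendrocytes had 6 of 8 markers above the filter, 4 higher and 2 lower (0.35), with sums of 4068 in CD47 KO and 3738 in WT. Markers of meningeal fibroblasts had 4 higher and 10 lower of 14 (−0.82), with sums of 7625 in CD47 KO and 11866 in WT. Those of pericytes and smooth muscle had 2 higher and 7 lower of the 9 of 12 that passed (−0.61), with sums of 7211 in CD47 KO and 11273 in WT, and *Acta2*, the actin of smooth muscle, gave 2002 in CD47 KO and 4004 in WT.

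Endothelial markers had 3 higher and 9 lower of the 12 of 13 that passed (−0.37), with sums of 15543 in CD47 KO and 18136 in WT. Choroid plexus epithelium (−0.40, 2 higher and 7 lower of 9), ependymal cells (−0.40, 0 and 4 of the 4 of 8 that passed), border-associated macrophages (−0.47, 0 and 3 of the 3 of 8), monocytes (−0.29, 1 and 4 of the 5 of 6) and B cells (−0.34, 0 and 3 of the 3 of 6) also had medians below 0. Neutrophils were at −0.18 (2 higher and 6 lower of the 8 of 9), with summed signals of 69689 in CD47 KO and 69753 in WT. Neurons (0.04, 6 higher and 4 lower of 10), oligodendrocytes (0.05, 6 and 4 of 10) and T and NK cells (0.32, 3 and 1 of the 4 of 7) had medians above 0. T cell markers were split, since *Cd3e* (−2.34) and *Cd4* (−2.16), below the filter, were lower in CD47 KO. *Cd8b1*, also below it, was at 0.87, and *Cd8a*, which passed, at −0.91. No marker of any list was at 0 on either array, but neither was any other probe set, since the lowest signal of all was 0.031. This therefore does not show that a cell type is present. In such mixed RNA, fewer cells of a type and less RNA per cell cannot be told apart. Many guidance genes are expressed by neurons, astrocytes, vessels and meninges as well as by microglia, and the part of these cell types in the guidance gene values was not tested.

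**Figure D4:**
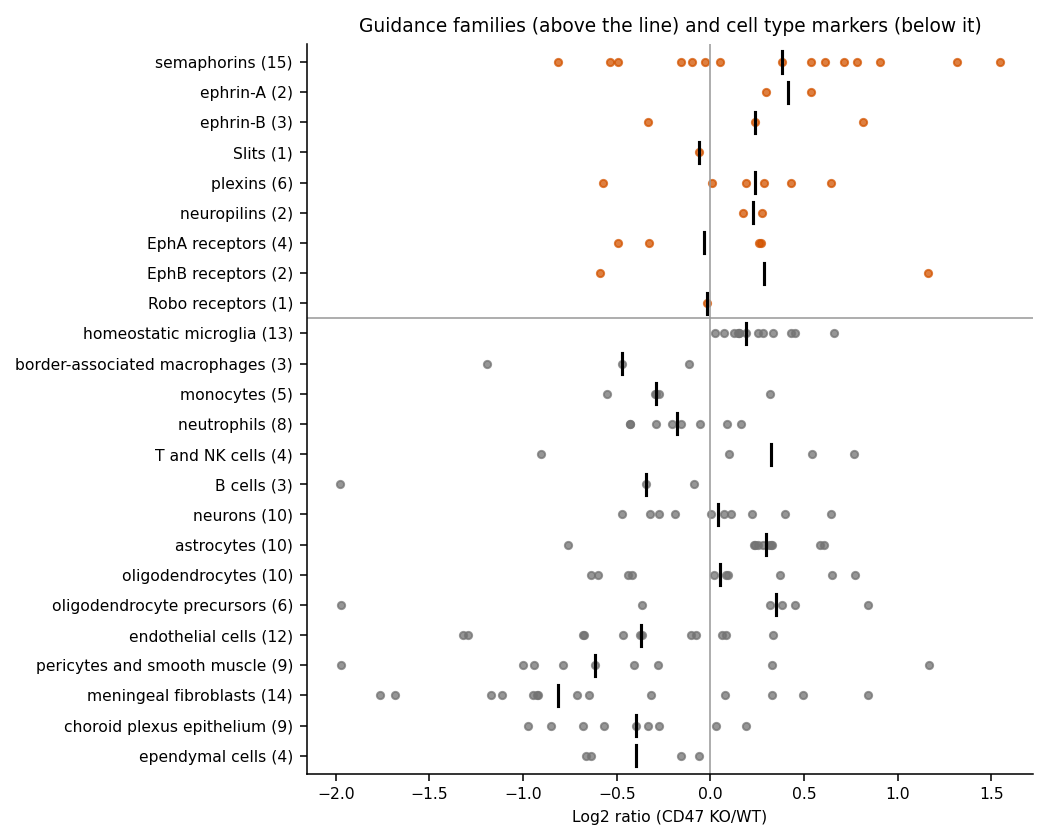
Log2 ratio (CD47 KO/WT) of each gene above the signal filter, by guidance family (above the horizontal line) and by cell type marker list (below it), with the number of genes in brackets and a black bar at the median. All 13 microglia markers lie right of 0, the meningeal, pericyte and endothelial medians lie left of it, and the semaphorins spread over a wider range than the neuropilins.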

How the data were processed

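RNA pooled from brain mononuclear cells of each genotype (20 ng) was amplified, labelled and hybridised to 1 Affymetrix mouse array per pool by the authors. The deposited values are MAS5 signal intensity, linear and scaled by the authors. The mean after trimming 2% at each end was 500.0 on both arrays. Software versions and a genome build are not given in the sources used here. From the 45101 probe sets, 34945 with exactly 1 gene symbol were kept, 932 had several symbols and 9211 none here, and 13 named control probe sets were left out. All 60 guidance genes matched RefSeq by gene ID with the same symbol.

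The Log2 ratio was computed from signals as deposited. No test was run, since there is 1 array per genotype, and counts use a 2-fold limit. The number of arrays limits precision. The guidance genes, the 3 pathway lists and the 15 marker lists were chosen with earlier results of these data known. Named beside the guidance genes are up to 4 pathway genes per list with the largest absolute ratio above the filter, and some of the 2 brightest markers per list. The pathway genes past 2-fold below the filter, *Ntn3*, *Unc5d*, *Rnd1*, *Ptk7* and *Vegfc*, are named outside this rule. Also named are *Cd47*, *Xist*, *Eif2s3y*, *Kdm5d* and, chosen with their values in view, the T cell markers *Cd3e*, *Cd4*, *Cd8a* and *Cd8b1*. The 11 alternatives changed the filter, the scaling, the treatment of low signals or the choice of probe set. The calculations were tested on simulated data, in Python 3.11.15 with pandas 2.3.3, numpy 2.4.6 and statsmodels 0.14.6.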

Additional observations from a re-analysis of the deposited data

How the results depend on the processing

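The count of 3 guidance genes more than 2-fold higher in CD47 KO (beside 2.16% of all genes that passed, with the share at each setting given likewise) was 7 without a filter (8.18%), 7 when the array median had to be reached on at least 1 array (3.53%), 0 when on both (1.28%), and 0 with the 75th percentile in place of the median (0.599%). It was 5 when the array medians were made equal (3.41%), 1 with the mean over a gene's probe sets (1.68%), 2 with the lower quartile added to both signals (1.46%) and 4, with *Epha4*, without the probe sets of type x and s, which can match several transcripts (2.25%). The count of 0 lower genes (3.71%) was 2 without a filter (12.2%) and 1 with at least 1 array at its median (5.41%). The ligand median of 0.30 was −0.0080 without a filter, 0.50 with the 75th percentile and 0.52 with equal medians, and the receptor median of 0.19 was 0.33 with equal medians. Equal medians moved the median of all genes above the filter to 0.14 from 0.0030. Of all these genes 373 were then more than 2-fold higher and 276 more than 2-fold lower, against 236 and 406 as deposited. Of the guidance genes above the filter 5 were then more than 2-fold higher and 0 more than 2-fold lower. Counted by sign alone, 27 of them were higher and 9 lower, against 23 and 13 as deposited. Over all genes, quantile normalization gave 288 more than 2-fold higher and 339 more than 2-fold lower, and loess 294 and 347. Of the 11 alternatives, 4 change the filter alone and cannot move a ratio. Over the other 7, the 36 guidance genes above the filter gave 252 values, of which 84 were identical, 8 moved by more than the standard deviation between probe sets of similar signal, and 17, of 9 genes, had the other sign. No paired analysis was possible because each genotype has 1 pool, and for the same reason no sample can be left out. Signal near the array median, where the 3 genes past 2-fold lie, limits the precision of the ratios.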
